A study of Mus musculus with 12 samples.

Results

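The Notch pathway genes described here were 10 of the 55348 genes counted in the organ of Corti. They were the ligands Jag1, Jag2 and Dll1, the receptors Notch1, Notch2 and Notch3, the glycosyltransferase Lfng, and the transcriptional effectors Hes1, Hes5 and Hey2. The genes were taken by symbol for their place in the pathway, and all 10 were among the 19052 genes that passed the filter on low counts, with at least 21 counts in every library. Whole organs of Corti, the hearing epithelium, were dissected at postnatal day 21, freed of the stria vascularis and modiolus, from mice lacking clarin-1 (Clrn1-/-), clarin-2 (Clrn2-/-) or both (Clrn1-/-Clrn2-/-) and from wild-type mice, and polyadenylated RNA was sequenced with strand information in 3 libraries per genotype. Clrn1-/- mice carried a constitutive deletion of a floxed exon of Clrn1, made with PGK-cre, and Clrn2-/- mice carried the clarinet nonsense mutation in every cell. Clrn1-/-Clrn2-/- mice carried both alleles. Wild-type mice were bred separately from the mutants, so that breeding and genotype cannot be told apart. The sources did not say whether the libraries of a genotype came from separate animals or pools, so p-values measure the spread between these libraries.

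Counts on genes ranged from 30008679 to 41049302 per library, and libraries of a genotype had a common coefficient of variation of 6.15% beyond counting noise. Clrn1 was at 23.8 to 28.6 CPM (counts scaled to a common library size with TMM factors) in wild-type, 2.69 to 3.04 in Clrn1-/- and 1.77 to 2.71 in Clrn1-/-Clrn2-/- libraries. Clrn2 fell below the wild-type libraries in Clrn2-/- and Clrn1-/-Clrn2-/- libraries and, with its gene intact, in Clrn1-/- libraries, at -1.57 on the log2 scale (edgeR adjusted p = 7.4e-05). Markers of hair cells and supporting cells were present in all 12 libraries, with summed levels of 469 to 649 CPM over 12 hair cell genes and 5110 to 5690 CPM over 12 supporting cell genes. No supporting cell marker was at 0 in any library, and 1 hair cell marker was at 0 in 1 wild-type library.

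Notch signalling passes between touching cells. A ligand of the Jagged or Delta family on one surface binds a Notch receptor on the next, the receptor is cleaved, and its freed intracellular domain joins the DNA-binding protein RBPJ to switch on Hes and Hey genes, whose products repress transcription. In the developing cochlea Jag1 marks the prosensory region, and later signalling from hair cells through Dll1 and Jag2 holds their neighbours in a supporting cell fate. Notch3, Notch4, Dll4 and Heyl also act in blood vessels, so bulk RNA of the organ of Corti sums several cell types, and fewer cells of a type and less RNA per cell cannot be told apart.

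In Clrn1-/-Clrn2-/- mice Lfng and Notch1 were over-expressed relative to wild-type, by 1.83-fold and 1.68-fold, and Jag1, Hes1 and Hey2 rose by less, while Jag2 fell. In the single mutants the changes were smaller. Notch1, Lfng and Hey2 rose in Clrn1-/- mice, and Jag1 and Hey2 rose and Notch3 fell in Clrn2-/- mice. Over- and under-expressed genes had to reach 1.5-fold with an adjusted p no higher than 0.05, and "rose" or "fell" is used for any gene that passed the adjusted p. By these thresholds 2 of the 10 genes were called in Clrn1-/-Clrn2-/- mice, against 9.90% of all genes tested. Passing the adjusted p alone were 6 of 10, against 37.0% of all genes, 5 of them higher, against 19.1%, and 1 lower, against 17.9%. No gene of the 10 was called by edgeR in Clrn1-/- mice, where 7.22% of all genes were called, or in Clrn2-/- mice, where 2.66% were. In both single mutants 3 genes passed the adjusted p alone, against 26.9% of all genes in Clrn1-/- and 14.2% in Clrn2-/- mice, and limma-voom and DESeq2 also called 0. An unadjusted edgeR p under 0.05 was found for 4 of the 10 in each. Among all 19052 genes it was found for 7223 in Clrn1-/- and 5265 in Clrn2-/- mice. As a median over the 10 genes, the log2 fold change reached 0.26 in Clrn1-/-Clrn2-/- mice, 0.14 in Clrn1-/- and 0.07 in Clrn2-/- mice, where the median of all genes tested lay within 0.0031 of 0. Libraries did not overlap with wild-type for 5 of the 10 genes in Clrn1-/- mice, against 40.2% of all genes, for 5 in Clrn2-/- mice, against 29.0%, and for 7 in Clrn1-/-Clrn2-/- mice, against 48.2%.

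**Figure D1:**
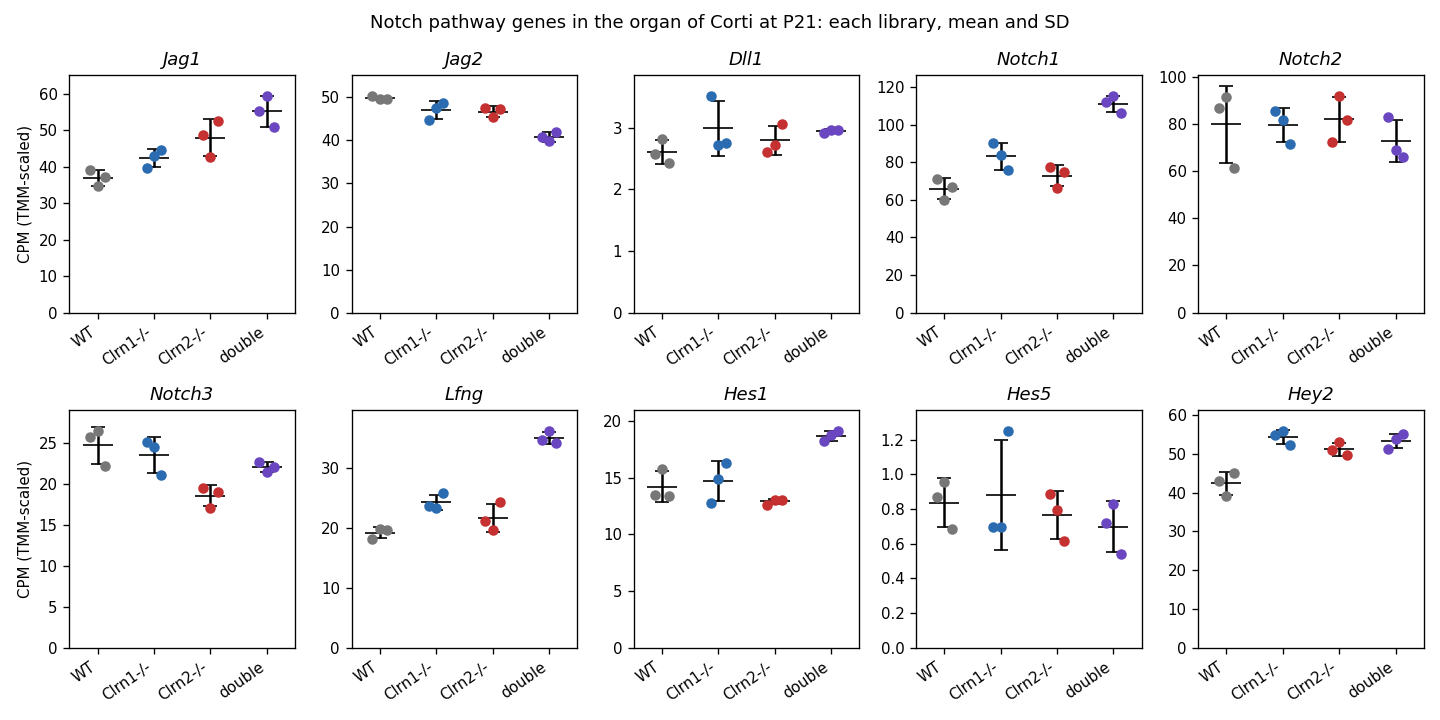
Level of each Notch pathway gene in CPM, with 1 point per library, a dash at the mean and error bars of 1 SD for the 3 libraries of wild-type (WT), Clrn1-/-, Clrn2-/- and Clrn1-/-Clrn2-/- (double) mice. For Lfng the double mutant libraries sit between 34.3 and 36.2 CPM, above all other libraries, whereas the 4 genotypes overlap for Notch2 and Hes5.

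Levels can be set beside each other between genes only per length, so they are given here as FPKM, the CPM divided by the exon length in kilobases. In wild-type mice Hey2 had the highest level of the 10 genes, 9.24 ± 0.655 FPKM (SD, n = 3), and its libraries did not overlap with those of the next gene. Lfng, Notch2, Jag2, Hes1 and Jag1 followed in that order between 7.65 ± 0.367 and 6.34 ± 0.372 FPKM (SD, n = 3), and each overlapped with its neighbour in the order. Notch1 at 4.64 ± 0.398 FPKM and Notch3 at 3.07 ± 0.279 FPKM (SD, n = 3) stood apart from each other and from the genes above. Dll1 and Hes5 were the lowest, at 0.619 ± 0.0469 and 0.615 ± 0.103 FPKM (SD, n = 3), and were indistinguishable. Against 18721 tested genes with a known length, Hey2 lay at the 70.3rd percentile of the wild-type level and Hes5 at the 21.7th, so the pathway genes spanned the middle of the range rather than its top.

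The order changed in Clrn1-/-Clrn2-/- mice. Lfng became the most abundant of the 10 at 14.0 ± 0.403 FPKM (SD, n = 3), above Hey2 at 11.6 ± 0.411, with no overlap between their libraries. Jag1 followed at 9.48 ± 0.715 FPKM (SD, n = 3) and overlapped with Hes1, at 9.17 ± 0.225. Notch1 and Notch2 overlapped, at 7.80 ± 0.309 and 6.73 ± 0.825 FPKM (SD, n = 3), followed by Jag2 at 5.85 ± 0.155 and Notch3 at 2.73 ± 0.0758. Dll1 and Hes5 stayed the lowest, at 0.700 and 0.512 FPKM. In Clrn1-/- and Clrn2-/- mice Hey2 and Lfng held the highest and next highest mean, as in wild-type.

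**Figure D2:**
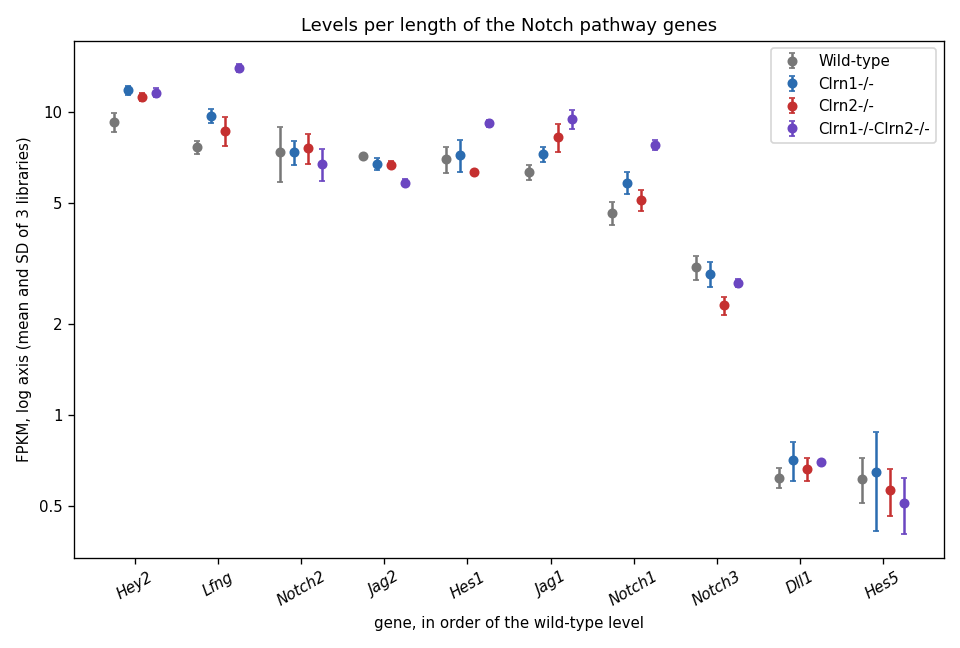
Levels of the 10 genes in FPKM on a log axis, ordered by the wild-type mean, as mean and SD of 3 libraries per genotype. Lfng passes Hey2 only in the Clrn1-/-Clrn2-/- libraries, and Dll1 and Hes5 lie below 1 FPKM in every genotype.

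Promoter sequence is shown for the genes called over-expressed, Lfng and Notch1, and for the effectors with a match to the RBPJ core motif, Hey2 and Hes5, since RBPJ is the DNA-binding partner of the Notch intracellular domain. Each window holds the 250 bases before the RefSeq start on build GRCm38.p6, read 5′ to 3′ on the strand of the gene, with the core TGGGAA or its complement TTCCCA in capitals. The windows lie at chr5:140607091-140607340 on the plus strand for Lfng, chr2:26503823-26504072 on the minus strand for Notch1, inside the span that Gencode gives the gene, chr10:30842784-30843033 on the minus strand for Hey2 and chr4:154960673-154960922 on the plus strand for Hes5.
Lfng: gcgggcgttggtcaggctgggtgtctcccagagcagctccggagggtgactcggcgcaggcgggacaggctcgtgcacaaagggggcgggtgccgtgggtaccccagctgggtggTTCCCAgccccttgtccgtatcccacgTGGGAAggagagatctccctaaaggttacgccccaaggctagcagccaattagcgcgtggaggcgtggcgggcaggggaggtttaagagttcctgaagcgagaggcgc
Notch1: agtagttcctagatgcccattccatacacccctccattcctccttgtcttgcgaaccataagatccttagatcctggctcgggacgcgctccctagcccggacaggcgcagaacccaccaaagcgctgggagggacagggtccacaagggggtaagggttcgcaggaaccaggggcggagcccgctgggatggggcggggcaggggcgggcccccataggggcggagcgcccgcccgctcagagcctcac
Hey2: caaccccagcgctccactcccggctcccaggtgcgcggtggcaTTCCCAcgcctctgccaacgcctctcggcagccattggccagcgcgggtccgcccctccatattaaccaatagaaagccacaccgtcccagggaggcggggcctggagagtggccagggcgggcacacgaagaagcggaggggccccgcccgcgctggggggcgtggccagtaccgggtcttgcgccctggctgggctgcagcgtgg
Hes5: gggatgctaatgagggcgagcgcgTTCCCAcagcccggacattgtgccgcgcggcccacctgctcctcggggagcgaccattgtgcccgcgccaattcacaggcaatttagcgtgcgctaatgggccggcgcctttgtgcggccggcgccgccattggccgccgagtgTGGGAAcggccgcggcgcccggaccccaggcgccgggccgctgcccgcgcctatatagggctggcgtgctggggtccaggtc
A window was found for 9 of the 10 genes, all but Hes1. The core occurred on either strand in 3 of these 9, with 2 matches in Lfng, 1 in Hey2 and 2 in Hes5, and in 24.1% of 27025 genes with a RefSeq window of the same length. The longer form GTGGGAA, which contains the core, occurred in the same 3 genes and in 6.18% of all genes. Lfng also held the palindromic E-box CACGTG, a site class bound by helix-loop-helix proteins, at 112 to 107 bases before the start, and it shared bases with the RBPJ match at 108 to 103. The E-box occurred in 6.86% of genes. The N-box CACNAG, named for binding by Hes proteins, occurred on either strand in Notch1, Lfng, Notch2 and Notch3, 4 of the 9, and in 40.1% of genes. Notch1, Jag1, Jag2, Dll1, Notch2 and Notch3 had no core match in these 250 bases. The matches describe the letters and do not show binding.

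Jag1 and Jag2, the 2 Jagged ligands, moved in opposite directions in Clrn1-/-Clrn2-/- mice. Jag1 (chromosome 2, bases 137081456 to 137116644 of GRCm38, minus strand) encodes the ligand that marks supporting cells of the organ of Corti. It was at 39.0, 34.7 and 37.1 CPM in the 3 wild-type libraries, 39.6, 42.9 and 44.5 in Clrn1-/-, 48.8, 42.7 and 52.6 in Clrn2-/-, and 55.4, 59.3 and 51.0 in Clrn1-/-Clrn2-/-. Every mutant library lay above every wild-type library, and the Clrn2-/- and Clrn1-/-Clrn2-/- libraries overlapped. Jag1 rose by 0.58 on the log2 scale (SE 0.0756, edgeR adjusted p = 1.8e-05) in Clrn1-/-Clrn2-/- mice, just below the fold minimum of 0.585, and by 0.38 (SE 0.0758, edgeR adjusted p = 0.00312) in Clrn2-/- mice. In Clrn1-/- mice it was 0.20 (SE 0.0761, edgeR adjusted p = 0.0643). The interaction of the genotypes was 0.00 for Jag1, with a 95% interval of -0.234 to 0.234, so the change with both alleles equalled the sum of the single changes on the log2 scale within that interval.

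Jag2 (chromosome 12, bases 112907819 to 112929776, minus strand) encodes a Jagged ligand of hair cells in the developing cochlea. Its libraries read 50.2, 49.5 and 49.6 CPM in wild-type, 44.7, 47.6 and 48.6 in Clrn1-/-, 47.6, 45.4 and 47.2 in Clrn2-/-, and 40.7, 39.8 and 41.9 in Clrn1-/-Clrn2-/-. All mutant libraries lay below wild-type, and those of Clrn1-/-Clrn2-/- mice lay below all others. Jag2 fell by 0.29 on the log2 scale in Clrn1-/-Clrn2-/- mice (SE 0.0449, edgeR adjusted p = 1.0e-04), while its log2 fold changes of -0.08 in Clrn1-/- and -0.09 in Clrn2-/- mice did not pass, with edgeR adjusted p-values of 0.186 and 0.198. Relative to the single mutants, Jag2 was lower in Clrn1-/-Clrn2-/- mice by a log2 fold change of -0.20 against each, with edgeR adjusted p-values of 0.00249 and 0.00427.

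The ratio of the 2 ligands was computed after their values were seen and is given as a description. The FPKM of Jag1 over that of Jag2 was 0.928, 0.837 and 0.894 in the wild-type libraries and 1.06, 1.08 and 1.09 in Clrn1-/-. It was 1.23, 1.12 and 1.33 in Clrn2-/- and 1.63, 1.78 and 1.45 in Clrn1-/-Clrn2-/-. Per length, Jag2 was thus the higher of the pair in every wild-type library and Jag1 in every mutant library. The crossing depends on the exon lengths used, 5827 bases for Jag1 and 6965 for Jag2. In CPM, Jag2 stayed above Jag1 in all Clrn1-/- libraries and in Clrn2-/- replicate 2.

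Dll1 (chromosome 17, bases 15367354 to 15376872, minus strand) encodes the Delta ligand of nascent hair cells and was near the bottom of the range at this age. It had 89 to 115 counts per library and levels of 2.58, 2.82 and 2.43 CPM in wild-type, 3.51, 2.72 and 2.75 in Clrn1-/-, 2.61, 2.72 and 3.06 in Clrn2-/-, and 2.92, 2.97 and 2.96 in Clrn1-/-Clrn2-/-. The single mutants overlapped with wild-type, while the Clrn1-/-Clrn2-/- libraries lay just above it. Counting noise alone gives a coefficient of variation of 10.2% in wild-type, and the log2 fold change of 0.18 in Clrn1-/-Clrn2-/- mice had an edgeR adjusted p of 0.341 and a 95% interval of -0.113 to 0.468. A difference was not detectable at this depth. A noncoding gene on the opposite strand shares 867 exon bases with Dll1.

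Of the 3 receptors, Notch1 rose, Notch2 did not differ detectably, and Notch3 fell in Clrn2-/- mice. Notch1 (chromosome 2, bases 26457903 to 26516663, minus strand) encodes the receptor that carries lateral inhibition between hair cells and supporting cells. It was at 71.3, 60.0 and 66.8 CPM in wild-type, 90.2, 83.6 and 75.8 in Clrn1-/-, 77.4, 66.5 and 74.9 in Clrn2-/-, and 112, 115 and 106 in Clrn1-/-Clrn2-/-. The Clrn1-/-Clrn2-/- libraries lay above all others, those of Clrn1-/- mice above wild-type, and those of Clrn2-/- mice overlapped with both. Notch1 was over-expressed by 0.75 on the log2 scale in Clrn1-/-Clrn2-/- mice (SE 0.0719, edgeR adjusted p = 7.8e-07) and rose by 0.33 in Clrn1-/- mice (SE 0.0721, edgeR adjusted p = 0.00296). In Clrn2-/- mice its log2 fold change was 0.14 (SE 0.0724, edgeR adjusted p = 0.214). The interaction was 0.27 and did not pass (edgeR adjusted p = 0.0795), so an effect of both alleles beyond the sum of the single effects was not shown for Notch1. In the annotation 2 noncoding genes on the opposite strand share 1068 and 414 exon bases with Notch1, and the log2 fold change of Notch1 lay between 0.68 and 0.80 in Clrn1-/-Clrn2-/- mice over 20 alternatives, unstranded counts included.

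Notch2 (chromosome 3, bases 98013527 to 98150361, plus strand) encodes a receptor found widely in epithelia and vessels. Its values were 86.7, 91.4 and 61.2 CPM in wild-type, 85.4, 81.7 and 71.3 in Clrn1-/-, 72.5, 91.6 and 81.6 in Clrn2-/-, and 82.7, 68.9 and 66.1 in Clrn1-/-Clrn2-/-. All 4 genotypes overlapped, and wild-type replicate 3 gave the lowest value of all 12. The wild-type coefficient of variation of Notch2 was 20.4%, against 1.84% from counting alone and 8.58% for Notch1. Its log2 fold change was -0.14 in Clrn1-/-Clrn2-/- mice (edgeR adjusted p = 0.436), with a 95% interval of -0.405 to 0.132, so that a change of that size could not be shown with this spread. Notch2 did pass as lower in 2 of 20 alternatives, with no filter on low counts and without wild-type replicate 3. Over the alternatives its log2 fold change reached -0.31 and its edgeR adjusted p 0.0228, so the result depends on that library. A predicted gene on the same strand shares 541 exon bases with Notch2.

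Notch3 (chromosome 17, bases 32120820 to 32166852, minus strand) encodes the receptor of pericytes and vascular smooth muscle. It was at 25.8, 26.5 and 22.3 CPM in wild-type, 25.2, 24.6 and 21.1 in Clrn1-/-, 19.6, 17.1 and 19.1 in Clrn2-/-, and 22.7, 21.5 and 22.1 in Clrn1-/-Clrn2-/-. The Clrn2-/- libraries lay below all others, while Clrn1-/- and Clrn1-/-Clrn2-/- libraries overlapped with wild-type. Notch3 fell by 0.42 on the log2 scale in Clrn2-/- mice (SE 0.0812, edgeR adjusted p = 0.0027). Compared with Clrn2-/- mice, Notch3 was higher by 0.34 in Clrn1-/- (edgeR adjusted p = 0.00831) and by 0.25 in Clrn1-/-Clrn2-/- mice (edgeR adjusted p = 0.0358), and the latter passed in 13 of 20 alternatives. Several markers of pericytes and vascular smooth muscle fell in both single mutants. The 10 genes summed to 373 to 433 CPM in wild-type, 346 to 403 in Clrn1-/-, 317 to 330 in Clrn2-/- and 402 to 403 in Clrn1-/-Clrn2-/- libraries, with none at 0. In Clrn2-/- mice 5 of the 10 fell and 0 rose, against 7.07% of all genes lower and 7.14% higher. Among those that fell were Myh11 (log2 fold change -0.67) and Acta2 (log2 fold change -0.60), which are contractile genes of smooth muscle and were under-expressed. In Clrn1-/- mice, where Notch3 did not pass, 6 of the 10 fell and 0 rose, against 13.3% of all genes lower and 13.6% higher. The median log2 fold change of the 10 was -0.30 there, against -0.26 in Clrn2-/- mice. The part of these cells in the result was not tested.

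Per length, Notch1 overtook Notch2 in Clrn1-/-Clrn2-/- mice, in a ratio that was also chosen after the values were seen. The FPKM of Notch1 over Notch2 was 0.623, 0.497 and 0.827 in wild-type, 0.800, 0.776 and 0.806 in Clrn1-/- and 0.808, 0.550 and 0.695 in Clrn2-/- libraries. In Clrn1-/-Clrn2-/- libraries it was 1.03, 1.26 and 1.22, the only values above 1. This too depends on the exon lengths used, 14232 bases for Notch1 and 10782 for Notch2. In CPM, Notch1 also lay above Notch2 in wild-type replicate 3, all Clrn1-/- libraries and Clrn2-/- replicate 1. The summed FPKM of the 3 receptors was 13.1 to 16.2 in wild-type, 14.5 to 17.4 in Clrn1-/-, 14.6 to 15.3 in Clrn2-/- and 16.3 to 18.3 in Clrn1-/-Clrn2-/- libraries, so that the Clrn1-/- libraries overlapped with all others.

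Lfng had the largest change of the 10 genes in Clrn1-/-Clrn2-/- mice. The gene (chromosome 5, bases 140607320 to 140615545, plus strand) encodes Lunatic fringe, a Golgi enzyme that adds N-acetylglucosamine to O-fucose on Notch receptors and thereby shifts their response between Delta and Jagged ligands. Lfng was at 18.1, 19.8 and 19.6 CPM in wild-type, 23.7, 23.4 and 25.8 in Clrn1-/-, 21.1, 19.7 and 24.3 in Clrn2-/-, and 34.7, 36.2 and 34.3 in Clrn1-/-Clrn2-/-. The Clrn1-/-Clrn2-/- libraries lay well above all others and the Clrn1-/- libraries above wild-type, whereas 1 Clrn2-/- library fell within the wild-type range. Lfng was over-expressed by 0.87 on the log2 scale in Clrn1-/-Clrn2-/- mice (SE 0.0717, edgeR adjusted p = 1.5e-07), rose by 0.34 in Clrn1-/- mice (SE 0.0726, edgeR adjusted p = 0.00259), and had a log2 fold change of 0.18 in Clrn2-/- mice (SE 0.0731, edgeR adjusted p = 0.116). Its interaction was 0.35 (SE 0.102, edgeR adjusted p = 0.0263), above the sum of the single effects. That interaction kept an adjusted p of at most 0.05 in 12 of 19 alternatives and lost it without any 1 of 7 libraries, namely wild-type replicate 2, Clrn1-/- replicates 1 and 2, Clrn2-/- replicates 1 and 2, and Clrn1-/-Clrn2-/- replicates 1 and 2, where the adjusted p reached 0.0784.

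The other 2 Fringe genes did not rise. These values were looked at after those of Lfng were known. Mfng, which encodes Manic fringe, had a log2 fold change of -0.08 in Clrn1-/-Clrn2-/- mice (edgeR adjusted p = 0.713), and Rfng, which encodes Radical fringe, fell by 0.23 (edgeR adjusted p = 9.6e-04). Rfng was at 42.5, 42.4 and 39.9 CPM in wild-type and 34.6, 36.8 and 35.4 in Clrn1-/-Clrn2-/- libraries. The FPKM of Lfng over Rfng was 0.424 to 0.487 in wild-type and 0.963 to 0.998 in Clrn1-/-Clrn2-/- libraries, so the 2 transcripts came close to equal levels per length in the latter.

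**Figure D3:**
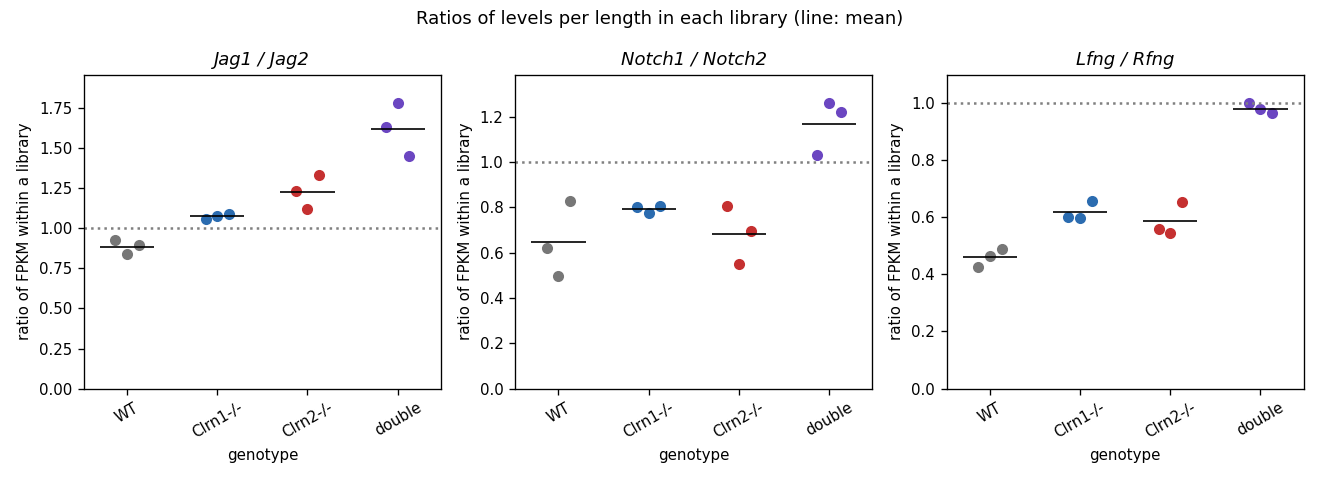
Ratios of FPKM within each library for Jag1 over Jag2, Notch1 over Notch2 and Lfng over Rfng, with 1 point per library and a line at the mean of each genotype. The dotted line marks equal levels, which Jag1 over Jag2 passes in all mutant libraries, Notch1 over Notch2 passes only in Clrn1-/-Clrn2-/- (double) libraries, and Lfng over Rfng approaches there.

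The 3 effectors, which encode helix-loop-helix repressors, differed in pattern. Hey2 (chromosome 10, bases 30832359 to 30842801, minus strand) rose by a like amount in all mutants. It was at 43.1, 39.2 and 45.1 CPM in wild-type, 54.9, 55.9 and 52.4 in Clrn1-/-, 51.0, 53.0 and 49.8 in Clrn2-/-, and 51.4, 53.8 and 55.1 in Clrn1-/-Clrn2-/-. All mutant libraries lay above all wild-type libraries, and the mutants overlapped with each other. The log2 fold change of Hey2 was 0.36 (SE 0.0535, edgeR adjusted p = 1.4e-04) in Clrn1-/- mice, 0.27 (SE 0.0536, edgeR adjusted p = 0.00299) in Clrn2-/- and 0.33 (SE 0.0536, edgeR adjusted p = 1.4e-04) in Clrn1-/-Clrn2-/- mice. Its interaction was -0.30 (SE 0.0754, edgeR adjusted p = 0.0131), below the sum of the single effects, and passed in all 19 alternatives run for it. Between Clrn1-/-Clrn2-/- and Clrn1-/- mice the log2 fold change was -0.02, with a 95% interval of -0.138 to 0.088.

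Hes1 (chromosome 16, bases 30064384 to 30067796, plus strand) rose only where both clarins were mutated. It was at 13.5, 15.8 and 13.4 CPM in wild-type, 12.8, 14.9 and 16.3 in Clrn1-/-, 12.6, 13.0 and 13.0 in Clrn2-/-, and 18.2, 18.8 and 19.1 in Clrn1-/-Clrn2-/-. The Clrn1-/-Clrn2-/- libraries lay above all others, Clrn1-/- libraries overlapped with wild-type, and Clrn2-/- libraries lay below it by less than the spread of the wild-type libraries. The log2 fold change of Hes1 was 0.40 in Clrn1-/-Clrn2-/- mice (SE 0.0849, edgeR adjusted p = 0.00162), 0.05 in Clrn1-/- and -0.14 in Clrn2-/- mice, the last 2 with edgeR adjusted p-values of 0.719 and 0.307. The interaction itself was 0.49 (SE 0.121, edgeR adjusted p = 0.0112), larger than for Lfng, and passed in all 19 alternatives run for it.

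Hes5 (chromosome 4, bases 154960923 to 154962371, plus strand) is the effector most closely tied to lateral inhibition in the developing cochlea, and it was barely present at this age. It had 21 to 48 counts per library, at 0.871, 0.959 and 0.683 CPM in wild-type, 0.696, 0.699 and 1.25 in Clrn1-/-, 0.888, 0.796 and 0.618 in Clrn2-/-, and 0.721, 0.832 and 0.541 in Clrn1-/-Clrn2-/-. All genotypes overlapped. The log2 fold change in Clrn1-/-Clrn2-/- mice was -0.27 with a 95% interval of -0.872 to 0.336 (edgeR adjusted p = 0.505), so a change of either sign was not detectable at this depth. A noncoding gene on the opposite strand shares 433 exon bases with Hes5, and 18 to 63 counts per library fell on its opposite strand, a number like that on its own, so that the low level of Hes5 is uncertain.

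**Figure D4:**
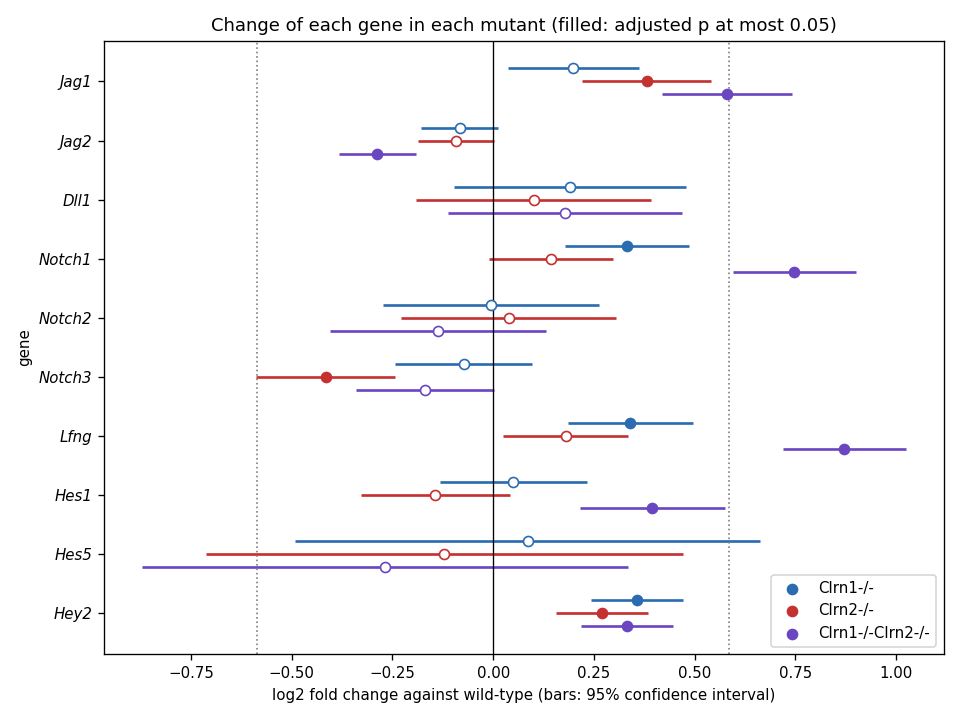
Log2 fold change of each gene against wild-type in Clrn1-/-, Clrn2-/- and Clrn1-/-Clrn2-/- mice, with 95% confidence intervals, filled where the adjusted p was at most 0.05, and dotted lines at a 1.5-fold change. Only Notch1 at 0.75 and Lfng at 0.87 in Clrn1-/-Clrn2-/- mice passed the dotted line with filled points, and Jag1 at 0.58 sat just inside it.

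Comparing the mutants with each other asks what loss of the other clarin adds. Relative to Clrn2-/- mice, Clrn1-/-Clrn2-/- mice over-expressed Lfng by 0.69 on the log2 scale (SE 0.0713, edgeR adjusted p = 5.4e-06), and Notch1 by 0.60 (SE 0.0716, edgeR adjusted p = 1.9e-05). These 2 of 10 stood against 5.10% of all genes called in that comparison, and 5 of 10 passed the adjusted p alone, against 27.6%. Hes1 rose by 0.54 there (SE 0.0859, edgeR adjusted p = 2.8e-04), and Jag1, at 0.20, did not pass (edgeR adjusted p = 0.0589). The call of Notch1 was lost without Clrn2-/- replicate 2, which was the lowest of its genotype, and without Clrn1-/-Clrn2-/- replicate 2, the highest of its genotype, with a lowest log2 fold change of 0.53 over the alternatives.

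Relative to Clrn1-/- mice, no gene of the 10 was called by edgeR, limma-voom or DESeq2, where edgeR called 7.23% of all genes. Passing the adjusted p alone were 5, against 30.4%. The same number had an unadjusted p under 0.05, against 7629 of all 19052 genes. Lfng rose by 0.53 (SE 0.0707, edgeR adjusted p = 3.4e-05), Notch1 by 0.42 (SE 0.0712, edgeR adjusted p = 3.3e-04), Jag1 by 0.38 (SE 0.0751, edgeR adjusted p = 0.00105) and Hes1 by 0.35 (SE 0.0848, edgeR adjusted p = 0.00539), and Jag2 fell. Between the single mutants only Notch3 passed the adjusted p, 1 of 10 against 18.5%, with 0 of 10 called by edgeR, limma-voom and DESeq2 against 4.73% of all genes by edgeR. There 5 had an unadjusted p under 0.05, against 6123 of all 19052 genes. In the interaction 0 of 10 were called by the 3 tools, against 5.50% of all genes by edgeR, and 3 passed the adjusted p alone, against 17.4%, namely Hes1, Hey2 and Lfng. At an unadjusted p under 0.05 were 5 of the 10, against 5782 of all 19052 genes. All comparisons with the same genotype share its libraries.

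The rest of the pathway was followed in a list of 61 genes, of which 59 were tested. Dll3 and Hes2 were too low, with Dll3 at 1 to 11 counts per library. In Clrn1-/-Clrn2-/- mice 25 of the 59 rose and 6 fell, against 19.1% and 17.9% of all genes, with a median log2 fold change of 0.11. In Clrn1-/- mice 12 rose and 5 fell, against 13.6% and 13.3%, and in Clrn2-/- mice 7 rose and 4 fell, against 7.14% and 7.07%. Called were 2 of the 59 in Clrn1-/-Clrn2-/- mice, Heyl and Tle3, against 9.90% of all genes tested. None was called by edgeR, limma-voom or DESeq2 in the single mutants. There edgeR called 7.22% of all genes in Clrn1-/- and 2.66% in Clrn2-/- mice. An unadjusted edgeR p under 0.05 was found for 20 of the 59 in Clrn1-/- mice, against 7223 of all 19052 genes. In Clrn2-/- mice it was found for 26, against 5265.

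Heyl is the relative of Hey2 best known from smooth muscle of vessels. It was at 29.6, 26.3 and 26.8 CPM in wild-type, 33.7, 32.8 and 34.1 in Clrn1-/-, 36.7, 30.3 and 40.7 in Clrn2-/-, and 49.3, 54.5 and 51.9 in Clrn1-/-Clrn2-/-. All mutant libraries lay above wild-type, and the Clrn1-/-Clrn2-/- libraries lay above all others. The log2 fold change of Heyl was 0.91 in Clrn1-/-Clrn2-/- mice (SE 0.0824, edgeR adjusted p = 4.0e-07). Of the 10 pericyte and smooth muscle markers, 1 rose and 3 fell there, against 19.1% of all genes higher and 17.9% lower. The part of these cells in the change of Heyl was not tested. Hey1, named after its value was seen, rose by 0.33 (edgeR adjusted p = 2.4e-04). Tle3, a Groucho corepressor recruited by Hes proteins, was at 51.0, 47.5 and 47.8 CPM in wild-type and 74.3, 76.4 and 70.8 in Clrn1-/-Clrn2-/- libraries, which did not overlap. The change of Tle3, 0.60 on the log2 scale (SE 0.0523, edgeR adjusted p = 2.9e-07), was close to the fold minimum, and the call was lost without wild-type replicate 2 or 3 or Clrn1-/-Clrn2-/- replicate 2.

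Hdac1, a histone deacetylase of corepressor complexes, fell in Clrn1-/- mice by 0.52 on the log2 scale (edgeR adjusted p = 1.2e-06) and rose by 0.16 in Clrn1-/-Clrn2-/- mice (edgeR adjusted p = 0.0113). It was at 44.2, 45.1 and 45.8 CPM in wild-type, 32.4, 30.2 and 31.7 in Clrn1-/-, 48.3, 47.3 and 51.3 in Clrn2-/-, and 51.3, 51.5 and 48.7 in Clrn1-/-Clrn2-/-. The Clrn1-/- libraries lay below all others. Hdac1 was under-expressed in Clrn1-/- relative to Clrn2-/- mice, at -0.64 on the log2 scale (SE 0.0475, edgeR adjusted p = 1.7e-07), and Clrn1-/-Clrn2-/- mice over-expressed it relative to Clrn1-/- mice by 0.69 (SE 0.0476, edgeR adjusted p = 6.3e-08). Heyl was the other gene called there, at 0.63 (SE 0.0815, edgeR adjusted p = 2.5e-05).

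By role, 8 of 10 genes of receptor cleavage and 5 of 8 of the nuclear complex rose in Clrn1-/-Clrn2-/- mice and 0 fell, against 19.1% of all genes higher and 17.9% lower. Of the genes named in the rest of the account of roles, all but Rbpj, Rfng, Notch4 and Dll4 were named after their values were seen. The median log2 fold change of the cleavage genes was 0.27. Those that rose included Adam17 (0.39) and Adam10 (0.25), the surface proteases that shed the receptor, Furin (0.32), which processes it in the Golgi, and Ncstn (0.31) and Psenen (0.23) of gamma-secretase, with edgeR adjusted p-values between 7.9e-06 and 0.0176. Aph1b and Aph1c also passed, but are near-identical copies whose reads may be divided uncertainly. For the nuclear complex the median was 0.20. Rbpj itself was at 43.3, 42.6 and 40.0 CPM in wild-type and 46.7, 49.2 and 47.9 in Clrn1-/-Clrn2-/- libraries, an increase of 0.19 on the log2 scale (SE 0.0453, edgeR adjusted p = 0.00313), against 43.2 to 45.4 CPM in the single mutants, whose changes did not pass. The coactivators Maml1 (0.33) and Maml3 (0.44) rose as well.

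In 4 other roles some genes fell in Clrn1-/-Clrn2-/- mice, again against 19.1% of all genes higher and 17.9% lower. Of 8 genes of receptor glycosylation and ligand uptake 1 rose and 2 fell, the latter Rfng and Mib2 (-0.25), a ubiquitin ligase for ligands. Of 11 corepressors 5 rose and 1 fell, Bend6 (-0.58, edgeR adjusted p = 1.2e-06), a neuronal partner of RBPJ. Among 12 regulators of receptor stability 4 rose and 2 fell, with Nrarp (0.33, edgeR adjusted p = 0.0102), a feedback inhibitor and target of Notch, among those that rose, although an antisense gene shares 2051 exon bases with it. Of 5 other receptors and ligands tested 0 rose and 1 fell, Dner (-0.53, edgeR adjusted p = 6.8e-08), a neuronal surface protein. Notch4 was at 18.2 to 26.6 CPM in wild-type and 20.7 to 21.5 in Clrn1-/-Clrn2-/- libraries (log2 fold change -0.02, edgeR adjusted p = 0.892), and Dll4 at 3.42 to 3.82 and 3.66 to 4.28 (log2 fold change 0.18, edgeR adjusted p = 0.331), both with overlapping libraries.

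**Figure D5:**
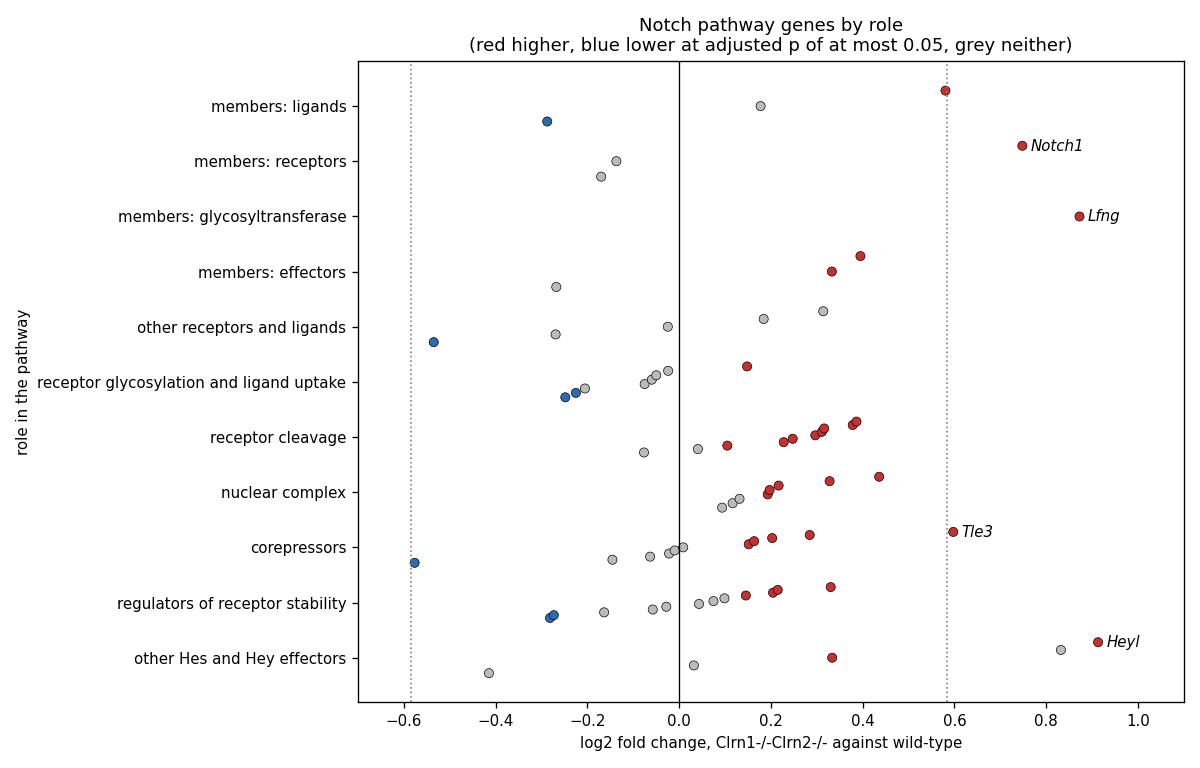
Log2 fold change against wild-type in Clrn1-/-Clrn2-/- mice for the 10 genes and 59 other genes of the pathway, each a point, grouped by role, with dotted lines at a 1.5-fold change and the called genes named. Of the cleavage genes 8 of 10 lie to the right in red, and the only genes past a dotted line that passed the test are Notch1, Lfng, Tle3 and Heyl.

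Markers of cell types differed with genotype as well. Of all genes tested, 19.1% rose and 17.9% fell in Clrn1-/-Clrn2-/- mice. In Clrn1-/-Clrn2-/- libraries the 12 supporting cell markers summed to 5110 to 5310 CPM, against 5410 to 5690 in wild-type, and 7 rose and 2 fell, with Fgfr3 (log2 fold change 0.94), Otog (1.15) and Tectb (0.89) over-expressed and Prox1 (-0.83) under-expressed. The 12 hair cell markers summed to 605 to 636 CPM, against 469 to 534, and of 11 tested 6 rose and 2 fell. The 10 macrophage markers summed to 219 to 257 CPM, against 135 to 176, and 9 rose, while the 10 neuron markers summed to 7680 to 7810 CPM, against 11300 to 12400, and 8 fell and 1 rose. For endothelium the range was 353 to 359 CPM, against 312 to 355, and for Schwann cells and myelin 19700 to 21100, against 20600 to 21700. Fibroblast markers summed to 8450 to 9760 CPM, against 8280 to 10200, those of the stria vascularis to 713 to 741, against 483 to 719 (with 3 genes higher, 3 lower and a median log2 fold change of -0.60), of skeletal muscle to 383 to 409, against 534 to 617, and of red blood cells to 547 to 738, against 710 to 1160. In Clrn1-/- and Clrn2-/- libraries fibroblast markers summed to 6270 to 6860 and 6130 to 6580 CPM, below wild-type. Of these markers 5 rose and 3 fell in Clrn1-/- mice, and 1 rose and 2 fell in Clrn2-/- mice. Macrophage sums in the same order were 217 to 234 and 156 to 201 CPM, and neuron sums 10100 to 10600 and 9630 to 11100. Those of red blood cells were 286 to 389 and 438 to 657 CPM. No supporting cell, neuron or macrophage marker was at 0 in any library. The part of these cell types in the changes of Notch1, Lfng, Jag1, Jag2, Hes1, Hey2 and Heyl was not tested.

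Genes whose pattern was most like those of the called genes were found by Pearson correlation of log2 CPM over the 12 libraries, which include the genotype differences and share their scaling. Closest to Notch1 were Slc9a4 (r = 0.983), a sodium-proton exchanger, Eif4g1 (r = 0.977), a translation initiation factor, and Sept9 (r = 0.977), a septin. Closest to Lfng were Cst6 (r = 0.982), a cystatin, Rcn1 (r = 0.981), a reticulocalbin, and Slc9a3r1 (r = 0.981), a scaffold protein of the cell cortex. Slc9a3r1 rose from a mean of 70.5 CPM in wild-type to 181 CPM in Clrn1-/-Clrn2-/- mice, and Rcn1 from 74.2 to 131. None of these 6 genes is a member of the pathway list, and the likeness is a description.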

How the data were processed

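Organ of Corti RNA from 4 genotypes was sequenced in 3 libraries each, grouped by their genotype labels. The authors deposited raw counts per gene, neither normalized nor pooled. According to the submitters' processing notes, STAR was run on GRCm38.p6 with a Gencode annotation, on stranded reads of 100 bases. Counts in the orientation of the kit, 95.2% to 95.6% of stranded counts, were analysed. Totals that name no gene made up 13.5% to 15.8% and were left out.

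In R 4.3.3, edgeR 4.0.16 kept genes with filterByExpr (minimum count 10), scaled by TMM and fitted all 12 libraries with genotype alone. The quasi-likelihood test was adjusted by Benjamini-Hochberg over 19052 genes, and standard errors came from the test statistic. The study's own test, limma-voom (limma 3.58.1), DESeq2 1.42.0 and other settings were alternatives. On simulated counts for Clrn1-/-Clrn2-/- against wild-type, edgeR called 196 of 200 changed genes and 3 others among 19052. The changed genes lay above a count limit, and every simulated fold exceeded the 1.68-fold change of Notch1. Recovery of smaller changes, or of changes in genes with few counts such as Hes5, was not tested.

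Lengths, positions and overlaps were read from Gencode M21, an earlier annotation of that build, by symbol (53238 genes matched 1 gene, 113 several and 1997 none). Promoters came from RefSeq. Intervals are 95% and depth bounds cover counting error only.

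The 10 genes, the pathway and marker lists and the tests were chosen with earlier results of these data known. The genes named are the 10, pathway genes called in a pairwise comparison, Notch4, Dll3, Dll4, Rbpj, the 3 genes most like each called gene and those said to be chosen later. Also named are Clrn1 and Clrn2, some marker genes that were called, and Parp9 for its overlap. Hes2 is named as not tested, and Hes3 and Hes7 as called with a library left out. Of the replicate numbers, which have no stated meaning, only those of Clrn1-/- and wild-type libraries deviated together in every pair, with correlations of 0.269, 0.126 and 0.105 over 12453 genes.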

Additional observations from a re-analysis of the deposited data

Results flagged for a closer look

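The effect of the Clrn1 genotype differed with the Clrn2 genotype for 3 of the 10 genes, by edgeR's test of the interaction itself on the log2 scale. It differed for 16 of the 59 other pathway genes, and 17.4% of all genes tested passed. Hes1 had an interaction of 0.49 (edgeR adjusted p = 0.0112) and Lfng of 0.35 (edgeR adjusted p = 0.0263), both above the sum of the single effects, and Hey2 of -0.30 (edgeR adjusted p = 0.0131), below it. The interaction of Lfng passed in only 12 of 19 alternatives, those of Hes1 and Hey2 in all 19. Of the 16, those called in this or another comparison were Hdac1 and Dtx3l. Hdac1 had 0.57 (edgeR adjusted p = 4.1e-05), with low values in the Clrn1-/- libraries alone, and Dtx3l had -0.62 (edgeR adjusted p = 1.1e-04). Dtx3l, which encodes a Deltex-like ubiquitin ligase and shares 458 exon bases with Parp9 on the opposite strand, was named after its value was seen. It was at 27.9 to 30.4 CPM in wild-type, 33.7 to 37.2 in Clrn1-/-, 38.0 to 41.2 in Clrn2-/- and 29.6 to 33.2 in Clrn1-/-Clrn2-/- libraries.

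Counts on the strand opposite to the gene were not used in the comparisons and are given as values. For Jag1 they reached 0.280 CPM in Clrn1-/-Clrn2-/- mice, with every library above all wild-type libraries, whose mean was 0.153. For Notch2 they were 0.413 CPM in Clrn1-/- and 0.423 CPM in Clrn2-/- mice, again with every library above wild-type, at 0.250. These levels rest on 7 or more counts per library for Jag1 and 12 or more for Notch2. No source of these reads was tested.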

How the results depend on the processing

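No call reversed under the alternatives run. These were unstranded counts, limma-voom and DESeq2, scaling by library size alone, no low-count filter or one at 0.1 FPKM in 1 library, fits of 2 genotypes, a replicate block, no fold minimum, and each library omitted once. Notch1 and Lfng stayed called in Clrn1-/-Clrn2-/- against wild-type mice in all 20, with log2 fold changes of 0.68 to 0.80 and 0.83 to 0.91. Without the fold minimum, the members called were 3 for Clrn1-/-, 3 for Clrn2-/- and 6 for Clrn1-/-Clrn2-/- mice against wild-type, 1 between the single mutants, 5 in Clrn1-/-Clrn2-/- against Clrn1-/-, 5 against Clrn2-/- and 3 in the interaction. The other pathway genes called then were 17, 11, 31, 6, 25, 24 and 16 in the same order. With each library left out, members called ranged from 2 to 3 in Clrn1-/-Clrn2-/- against wild-type mice (Jag1 was added without wild-type replicate 1 or Clrn1-/-Clrn2-/- replicate 3, and with library size alone) and from 1 to 2 against Clrn2-/- mice, and were 0 in the other comparisons. Other pathway genes called ranged from 1 to 3 in Clrn1-/-Clrn2-/- and from 0 to 1 in Clrn2-/- against wild-type (Hes3 without Clrn2-/- replicate 1, Hes7 without replicate 3), from 1 to 2 between the single mutants, from 0 to 1 in Clrn1-/-Clrn2-/- against Clrn2-/- and from 1 to 2 in the interaction. The median log2 fold change of the members in Clrn2-/- mice ranged from -0.02 (without wild-type replicate 3) to 0.12, and in Clrn1-/- mice from 0.07 (without wild-type replicate 3) to 0.22 (without Clrn1-/- replicate 2). The call of Tle3 was also lost with no filter on low counts. The causes were not tested.

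With the replicate block, the members called numbered 0 for Clrn1-/-, 0 for Clrn2-/- and 2 for Clrn1-/-Clrn2-/- mice against wild-type, as without it, and it changed no call of a member. Notch1 between the single mutants, and Notch1 and Notch3 in the interaction, passed the adjusted p with the block, as they did under 2, 4 and 2 other alternatives. Library size alone moved the median of all genes in Clrn1-/-Clrn2-/- mice to 0.0422, the largest shift. Depth limits Hes5 and Dll1, with 21 to 115 counts per library.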
